A study of Malus domestica with 5 samples.

Results

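The miR482 and miR2118 family was followed in buds of apple (Malus domestica) from 2 growth phases, juvenile and reproductive. Its members were taken from a deposited table of small RNA read counts by name, as every feature called mdm-miR482 or mdm-miR2118 with a letter, a hyphen or nothing after the number. This gave 8 names among 430043 features, which were miR482a-5p, miR482a-3p, miR482b, miR482c, miR482d, miR2118a, miR2118b and miR2118c. The 3 miR2118 names carried identical counts in all 5 libraries and were treated as a single entry, miR2118, which left 6 distinct sets of counts. No other feature of the table, named, candidate or repeat, had the same counts as any of these 6.

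The juvenile group has 2 libraries, titled as juvenile phase buds, and their tissue label gives a juvenile-like sucker at the base of the stem. The reproductive group has 3 libraries, for which title and tissue both name reproductive phase buds. No cultivar, genotype, treatment or age is given for either group, and nothing says whether separate trees were sampled. The p-values therefore reflect how far these 5 libraries scatter, which may be technical scatter. The growth phase and the position of the shoot differ together between the groups and cannot be told apart. The table used here holds small RNAs only, so the bud label was not checked against mRNA markers.

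MicroRNAs of this family pair with the stretch of NBS-LRR disease resistance genes that codes for the conserved P-loop of the nucleotide-binding site. In many seed plants such cleavage starts a cascade, in which an RNA-dependent RNA polymerase copies the transcript and a Dicer-like enzyme cuts it into phased secondary siRNAs that can act on further resistance genes. miR482 is best known for this role in dicots such as tomato and cotton, where infection can lower it, and miR2118 is also known in grasses as a trigger of phased siRNAs in anthers. A miRNA precursor yields a duplex of a 5p and a 3p strand, and in miR482 the strand that pairs with resistance genes is usually the 3p strand.

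The counts as deposited summed to between 85087230 and 97283456 per library in juvenile and between 122455352 and 140173167 in reproductive buds. A read can be counted under several features, so these sums are not read depths. Of the 207 named apple miRNAs, 79 distinct sets of counts remained after names with identical counts were taken once. The family is well covered within this group. Its 6 sets of counts made up 14.1% and 13.4% of the counts of the 79 in juvenile replicates 1 and 2, and 11.1%, 16.9% and 16.0% in reproductive replicates 1, 2 and 3. Those shares overlap between the phases.

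The members covered a wide range of abundance, and those called between the phases were called in both directions. miR482a-5p was the most abundant, ranking between 2 and 3 of the 79 in each library. miR482c ranked between 6 and 7, miR482b between 7 and 8 and miR482a-3p between 13 and 16. miR2118 ranked between 28 and 33 and the rare miR482d between 37 and 49. This order, miR482a-5p, miR482c, miR482b, miR482a-3p, miR2118 and miR482d, was the same in all 5 libraries, and no neighbouring pair exchanged places. Under TMM scaling, which assumes that most features do not differ, 3 of the 6 sets of counts fell from juvenile to reproductive buds (miR482b, miR482c and miR482a-5p), 1 rose (miR482d) and 2 did not pass the test (miR482a-3p and miR2118), with miR482a-5p turning higher when libraries were scaled on the sums of counts. Over all 282619 features tested with edgeR's quasi-likelihood test, 24.3% were lower and 21.1% were higher at a Benjamini-Hochberg adjusted p under 0.05. Among the 64 tested sets of counts of named miRNAs the corresponding shares were 35.9% and 25%. All 8 names passed the minimum of 10 counts in at least 2 libraries. miR482d, at 18 and 7 counts in juvenile libraries, passed only with the help of its reproductive libraries, where it was higher. In bulk buds, fewer cells that make a miRNA and less of it per cell cannot be told apart.

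**Figure D1:**
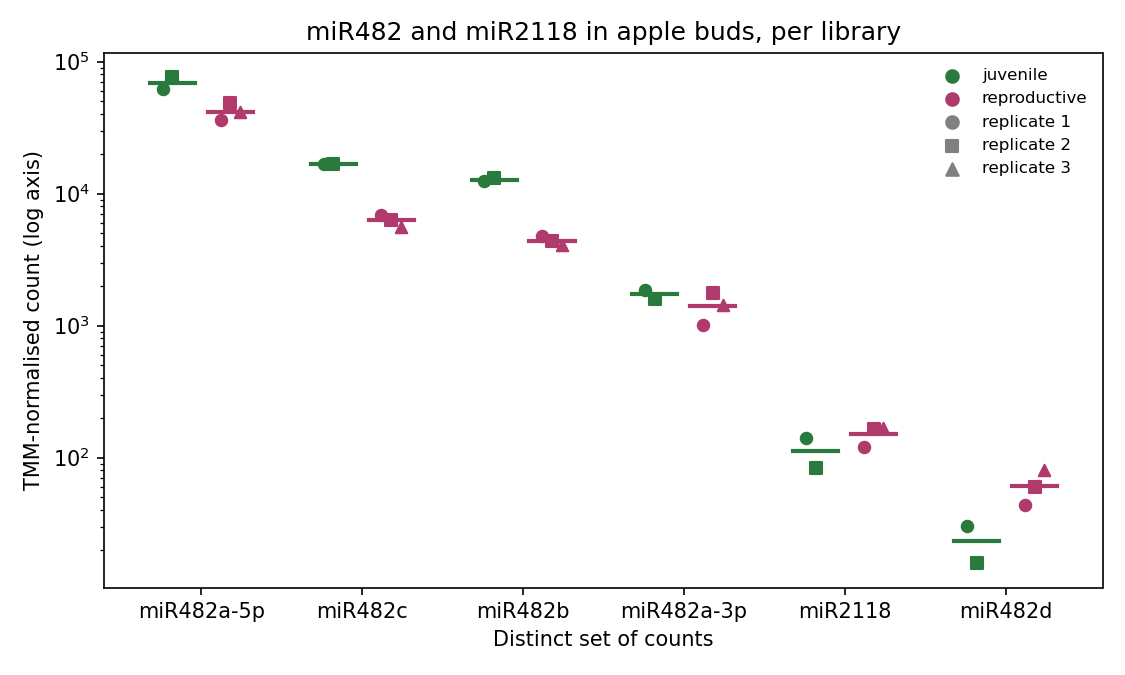
TMM-normalised counts (log axis) of the 6 distinct sets of counts in 2 juvenile and 3 reproductive libraries, with each library as a point, replicate numbers as symbols and group means as bars. The groups of miR482c and miR482b lie well apart under this scaling, with juvenile above, while those of miR482a-3p and miR2118 overlap.

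miR482b and miR482c are the abundant members whose names give no strand. miR482b was counted 7357 and 5786 times in juvenile replicates 1 and 2, and 7978, 6406 and 6411 times in reproductive replicates 1, 2 and 3. miR482c was counted 9936 and 7349 times in juvenile libraries, and 11398, 9335 and 8850 times in reproductive ones. As deposited, the groups of each overlapped, whereas 94.8% of the features tested had every reproductive count above every juvenile count. After TMM scaling the groups no longer overlapped. miR482b stood at 12806 ± 422 normalised counts in the juvenile group (SD, n = 2) and at 4408 ± 359 in the reproductive group (SD, n = 3), a 2.90-fold fall (log2 fold change -1.54 ± 0.10 SE, adjusted p = 3.3e-09 in edgeR). miR482c stood at 16768 ± 175 (SD, n = 2) and 6274 ± 608 (SD, n = 3), a 2.67-fold fall (log2 fold change -1.42 ± 0.10 SE, adjusted p = 1.6e-08 in edgeR). Both were called lower in every alternative tried, with log2 fold changes of -0.42 and -0.30 when libraries were scaled on the sums of counts alone.

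miR482b and miR482c were also the most alike of the 15 pairs of members. Their log2 normalised counts, each centred on its own mean, differed by a root mean square of 0.07 over the 5 libraries, against 0.28 for the next pair (miR482a-5p and miR482a-3p) and 1.53 for the least alike pair (miR482b and miR482d). Scaling plays no part in quotients of counts. The count of miR482b divided by that of miR482c was 0.740 and 0.787 in juvenile libraries, and 0.700, 0.686 and 0.724 in reproductive ones. This quotient was lower in each reproductive library than in either juvenile one, by 1.09-fold (two-sided exact permutation p = 0.1, 0.178 after Benjamini-Hochberg adjustment over 16 within-library measures). The quotient was not planned and was added after the values were seen. With 2 libraries against 3 an exact permutation test has 10 splits, so p = 0.1 is the smallest value that any such measure can reach. Reads that match more than a single member may be counted under each, so the 2 members are uncertain as separate entries, and the part of shared reads in their likeness was not tested.

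miR482a is the only member listed by strand. miR482a-5p was counted 36599 and 33624 times in juvenile libraries, and 59635, 71142 and 65376 times in reproductive ones. After scaling, juvenile libraries were higher than reproductive ones without overlap, at 69185 ± 9849 (SD, n = 2) against 41915 ± 6197 (SD, n = 3), a 1.65-fold fall (log2 fold change -0.72 ± 0.14 SE, adjusted p = 0.00051 in edgeR). This direction depended on the scaling, since miR482a-5p was called higher under the sums of counts (log2 fold change 0.41, edgeR adjusted p = 0.0015) and was not called with TMM over named miRNAs (-0.30, adjusted p = 0.44).

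miR482a-3p, the strand named as partner, was counted 1088 and 706 times in juvenile libraries, and 1697, 2618 and 2263 times in reproductive ones. Its scaled groups overlapped, at 1724 ± 177 (SD, n = 2) and 1412 ± 378 (SD, n = 3), with reproductive replicate 1 lowest at 1020 and reproductive replicate 2 within the juvenile range at 1775. The difference did not pass (log2 fold change -0.29 ± 0.16 SE, adjusted p = 0.15 in edgeR). It was called lower without reproductive replicate 2 (-0.49, edgeR adjusted p = 0.017) and higher under the sums of counts (0.82, adjusted p = 0.00081).

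The 2 strands of miR482a can be compared within a library, where no scaling enters. The 5p strand was counted more often than the 3p strand in each library, 33.6-fold and 47.6-fold in juvenile replicates 1 and 2, and 35.1-fold, 27.2-fold and 28.9-fold in reproductive replicates 1, 2 and 3. As a share of the counts of both strands, the 3p strand made up 2.89% in juvenile replicate 1 (95% Wilson interval 2.72 to 3.06%) and 2.06% in juvenile replicate 2 (1.91 to 2.21%). In reproductive replicates 1, 2 and 3 it made up 2.77% (2.64 to 2.90%), 3.55% (3.42 to 3.69%) and 3.35% (3.21 to 3.48%). These intervals cover counting error only, since the libraries were amplified and the labels' protocols mention no molecular identifiers. The juvenile replicates differed from each other beyond these intervals, and reproductive replicate 1 fell between them. The 5p over 3p quotient averaged 40.6 ± 9.89 (SD, n = 2) and 30.4 ± 4.19 (SD, n = 3), with overlapping groups (1.32-fold lower in reproductive buds, two-sided exact permutation p = 0.3, adjusted p = 0.3). A difference in strand use between the phases was therefore not shown.

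miR482d, the rarest member, was called higher in reproductive buds under each of the 4 scalings. It was counted 18 and 7 times in juvenile libraries (95% Poisson intervals 10.7 to 28.4 and 2.81 to 14.4), and 73, 88 and 126 times in reproductive ones. Every reproductive library was higher than both juvenile ones before scaling, as for 94.8% of all features tested. The same held after scaling, as for 36.1% of all features. Normalised counts were 23.2 ± 10.4 (SD, n = 2) and 61.3 ± 18.3 (SD, n = 3), a 2.52-fold rise (log2 fold change 1.33 ± 0.36 SE, adjusted p = 0.0064 in edgeR). The juvenile pair differed 1.93-fold after scaling. Without juvenile replicate 2 the log2 fold change was 0.99 and the call ended (edgeR adjusted p = 0.11), and without juvenile replicate 1 it was 1.94 (adjusted p = 0.020).

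miR2118 stands apart from miR482 by name. Its shared counts were 83 and 37 in juvenile libraries, and 201, 244 and 265 in reproductive ones. After scaling the groups overlapped, since juvenile replicate 1, at 141, lay above reproductive replicate 1, at 121. Normalised counts were 112 ± 40.5 (SD, n = 2) and 152 ± 26.8 (SD, n = 3), and the difference did not pass (log2 fold change 0.39 ± 0.21 SE, adjusted p = 0.13 in edgeR). The value rested on the juvenile libraries, at 0.85 without juvenile replicate 1 (edgeR adjusted p = 0.032) and 0.10 without juvenile replicate 2 (adjusted p = 0.77). It was also called higher without reproductive replicate 1 (0.54, edgeR adjusted p = 0.014), under the sums of counts (1.50, adjusted p = 5.7e-05) and with TMM over named miRNAs (0.90, adjusted p = 0.0011).

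**Figure D2:**
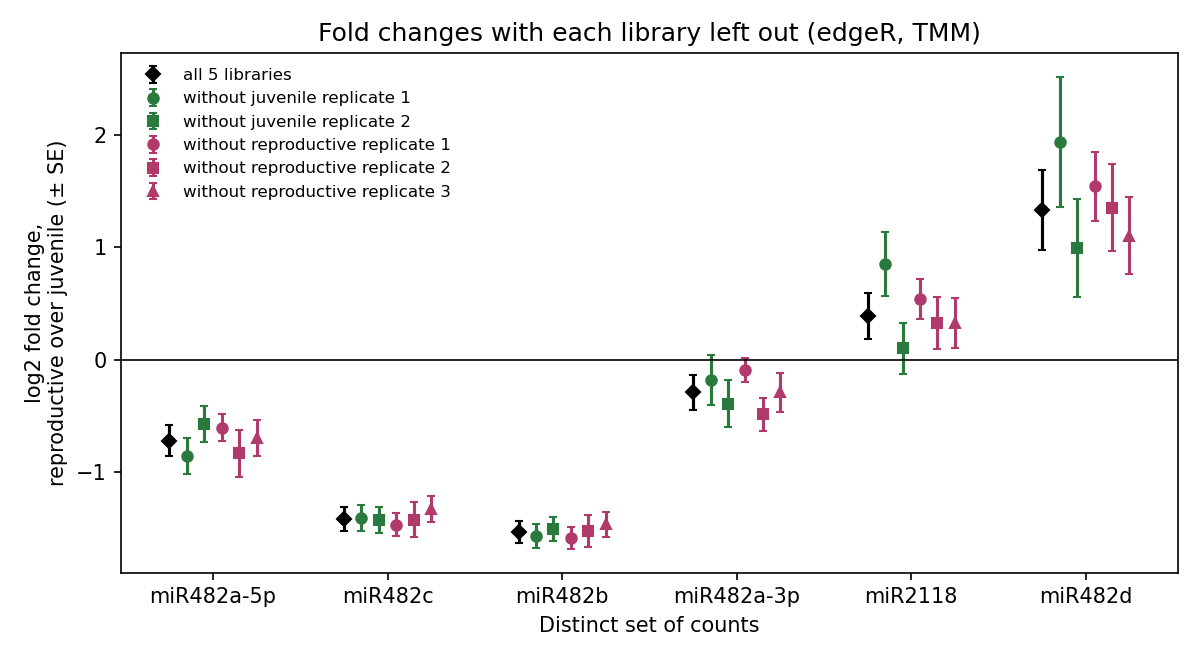
Log2 fold changes (reproductive over juvenile, edgeR with TMM, bars are SE) of the 6 sets of counts with all 5 libraries and with each library left out in turn. miR482b stays between -1.59 and -1.47 and miR482c between -1.47 and -1.33, while miR2118 ranges from 0.10 to 0.85 and miR482d from 0.99 to 1.94.

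Across the 6 sets of counts, 4 had scaled groups that did not overlap (all but miR482a-3p and miR2118), where 69.1% of all features tested had such groups in either direction. Of these, miR482d was higher in reproductive buds, as were 36.1% of all features, and the other 3 were lower, as were 33% of all features. The spread among the reproductive libraries was shared unevenly. Reproductive replicate 1 had the highest scaled counts of miR482b (4796) and miR482c (6851) of its group. It had the lowest of miR482a-5p (35847), miR482a-3p (1020), miR482d (43.9) and miR2118 (121). The coefficient of variation in reproductive buds ran from 8.15% for miR482b and 9.69% for miR482c to 26.8% for miR482a-3p and 29.8% for miR482d. In juvenile buds it ran from 1.05% for miR482c to 44.9% for miR482d.

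Scaling moved all members together and left their order alone. A change of scaling shifts every feature by nearly the same amount, so this is arithmetic and no test of the members. The factor of the reproductive over the juvenile libraries was 3.08-fold with TMM, and with DESeq2's size factors, TMM over named miRNAs and the sums of counts it was 3.12-fold, 2.24-fold and 1.41-fold. The median log2 fold change of all features tested was accordingly 0.08, 0.06, 0.55 and 1.19. Relative to that median, miR482b lay at -1.61 under TMM, -1.62 under DESeq2, -1.65 with TMM over named miRNAs and -1.60 under the sums. miR482c lay at -1.49 under TMM and -1.49 under the sums, and miR482a-5p at -0.80 and -0.78. miR482a-3p lay at -0.37 and -0.36, miR2118 at 0.31 and 0.32, and miR482d at 1.26 and 1.26. The median of the 6 members was -0.51 under TMM. Of the 6, 2 were called higher and 2 lower with TMM over named miRNAs, where 40.7% and 6.73% of all features were. Under the sums of counts 4 were called higher and 2 lower, where 83.3% and 2.46% of all features were. With DESeq2, 1 was called higher and 3 lower, where 12.9% and 21.1% of all features were.

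**Figure D3:**
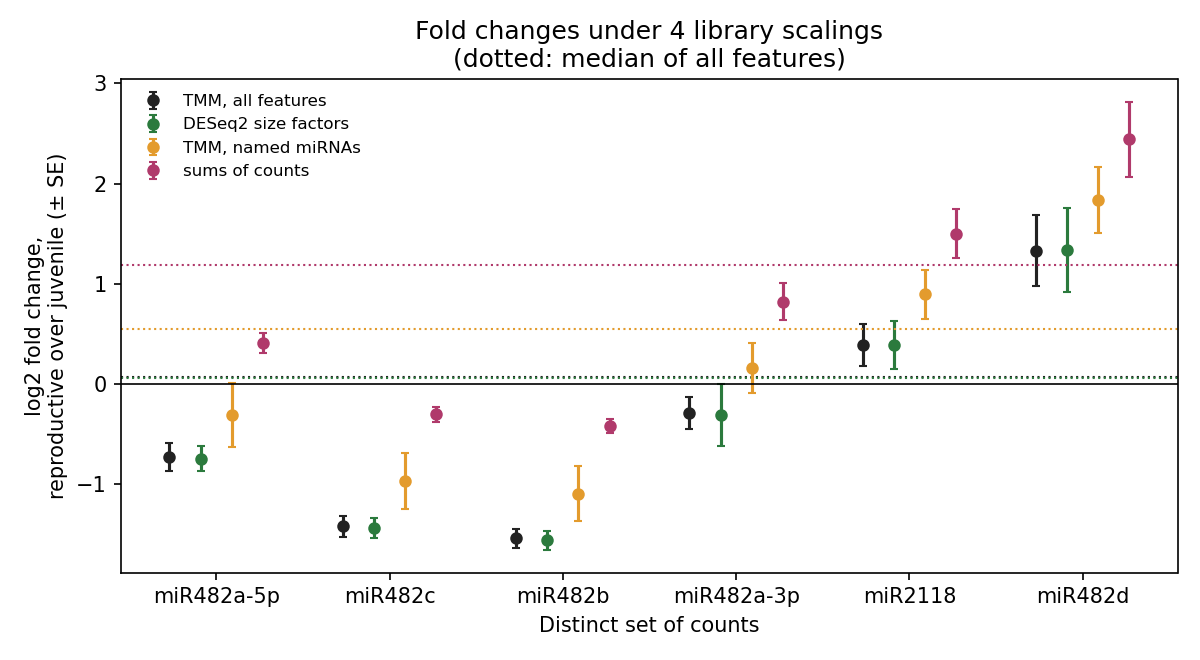
Log2 fold changes (reproductive over juvenile, bars are SE) of the 6 sets of counts under 4 library scalings, with the median of all features under each scaling as a dotted line. miR482b and miR482c lie below 0 under each scaling and miR482d above, while miR482a-5p and miR482a-3p cross 0. Each member keeps nearly the same distance to the dotted line, because scaling shifts all features nearly alike.

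The make-up of the family within each library, which no scaling touches, was compared next. miR482a-5p held 66.4% and 70.8% of the family's counts in juvenile libraries, and 73.6%, 79.2% and 78.5% in reproductive ones, without overlap. miR482c held 18.0% and 15.5% in juvenile, and 14.1%, 10.4% and 10.6% in reproductive libraries. miR482b held 13.4% and 12.2%, then 9.85%, 7.13% and 7.70%. The groups did not overlap for miR482c or miR482b, which were lower in reproductive buds. miR482a-3p held 1.98% and 1.49%, then 2.10%, 2.91% and 2.72%. miR2118 held 0.151% and 0.0779%, then 0.248%, 0.272% and 0.318%, and miR482d 0.0327% and 0.0147%, then 0.0901%, 0.0980% and 0.151%. miR482a-3p, miR2118 and miR482d took larger shares in every reproductive library than in either juvenile one. No member had shares that overlapped between the groups. The share of all features for which this would hold was not computed, and the scaled groups of 69.1% of all features did not overlap either. A share also grows where other members fall, and miR482a-3p was not called under TMM (log2 fold change -0.29). In two-sided exact permutation tests, the shares of miR482b (4.54 percentage points lower), miR482d (0.0894 points higher) and miR2118 (0.165 points higher) reached p = 0.1, the smallest possible, and those of miR482a-5p (8.50 points higher), miR482c (5.06 points lower) and miR482a-3p (0.845 points higher) p = 0.2. After adjustment over the 16 measures these exact p-values were 0.178 and 0.213. The shares of a library add up to the whole, so they are not independent of each other.

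With miR482a-5p left out, miR482b and miR482c dominated. miR482c then held 53.8% and 52.9% in juvenile and 53.4%, 49.9% and 49.4% in reproductive libraries, with overlapping groups, unlike before. miR482b held 39.8% and 41.7%, then 37.4%, 34.3% and 35.8%, without overlap. miR482a-3p held 5.89% and 5.08%, then 7.95%, 14.0% and 12.6%, with reproductive replicate 1 nearest to the juvenile libraries. miR2118 held 0.449% and 0.266% in juvenile libraries, and 0.942%, 1.31% and 1.48% in reproductive ones, without overlap.

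**Figure D4:**
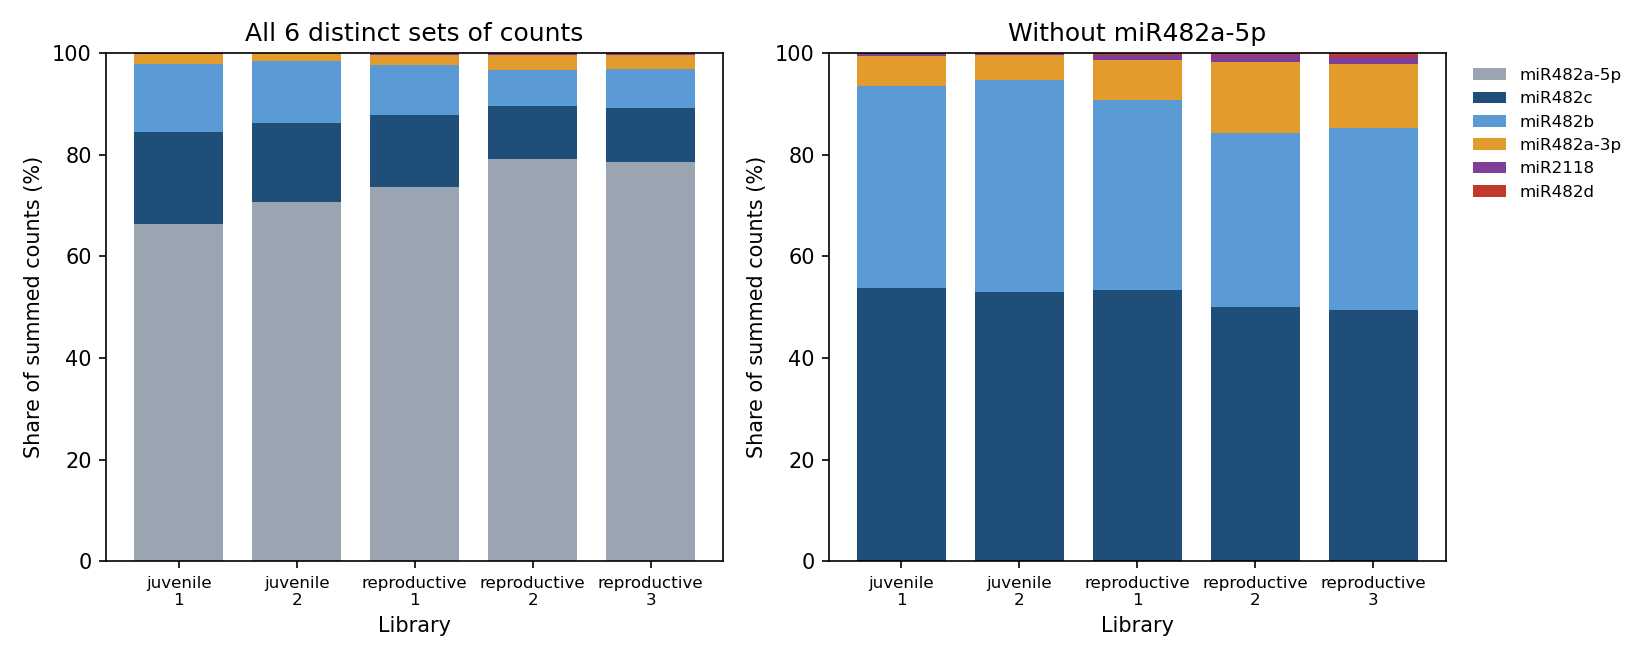
Share of each distinct set of counts in the summed counts of the family (percent) in each of the 5 libraries, with all 6 sets on the left and without miR482a-5p on the right. The share of miR482a-5p runs from 66.4% to 70.8% in juvenile and from 73.6% to 79.2% in reproductive libraries, and on the right miR482a-3p holds 5.08% to 5.89% in juvenile and 7.95% to 14.0% in reproductive libraries.

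Whether members differed from each other in their response was tested with quotients over miR482a-5p, the most abundant member. miR482d over miR482a-5p was 4.47-fold higher in reproductive buds, and miR2118 over miR482a-5p 2.28-fold higher (two-sided exact permutation p = 0.1 for each, adjusted 0.178). miR482b over miR482a-5p was 1.76-fold lower and miR482c over miR482a-5p 1.62-fold lower (exact permutation p = 0.2 for each, adjusted 0.213). None of these 4 quotients overlapped between the groups, and none passed 0.05, which the design does not allow. The denominator was itself lower under TMM, at -0.80 relative to the median of all features. A feature at that median would therefore also be higher over miR482a-5p. The share of all features with such quotients was not computed. Over miR482c, a denominator chosen after the values were seen, miR482d was 7.24-fold higher, miR2118 3.70-fold higher (exact permutation p = 0.1 for each, adjusted 0.178) and miR482a-3p 2.15-fold higher (exact permutation p = 0.2, adjusted 0.213), without overlap. Under TMM, miR482c lay at -1.49 and miR482a-3p at -0.37 relative to the same median. The quotient of miR482a-3p was thus higher with both members below that median. Taken as families, miR2118 amounted to 0.00151 and 0.000779 of the summed miR482 counts in juvenile libraries, and to 0.00249, 0.00272 and 0.00319 in reproductive ones. That quotient was 2.57-fold higher in reproductive buds, without overlap (two-sided exact permutation p = 0.1, adjusted 0.178). Its denominator is mostly miR482a-5p, miR482c and miR482b, each called lower under TMM. miR2118 itself was not called under TMM and lay at 0.31 relative to the median of all features.

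**Figure D5:**
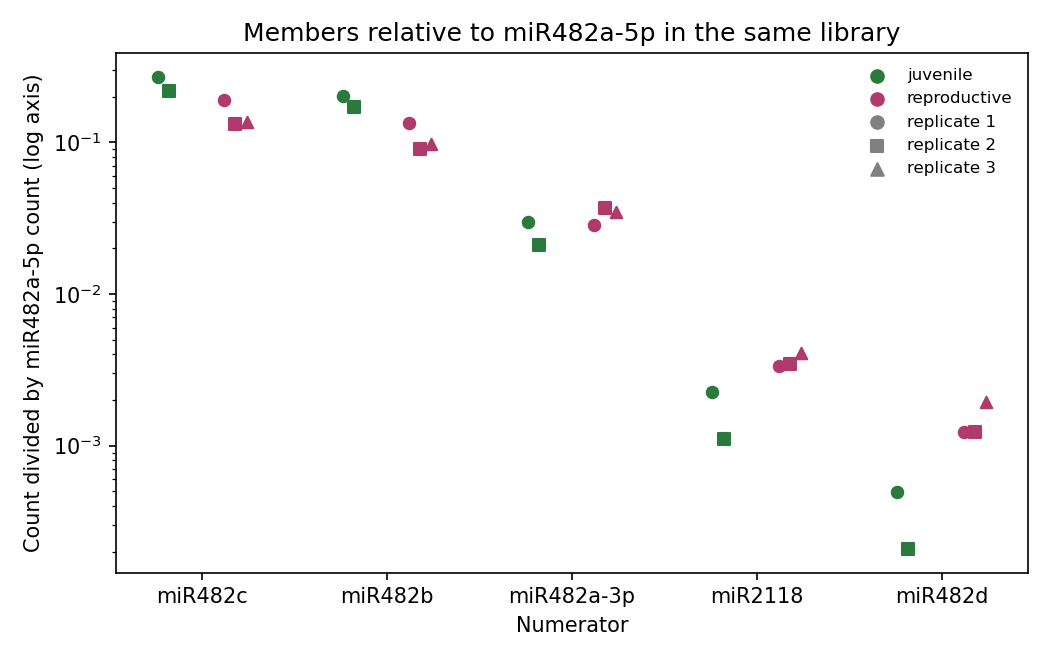
Counts of 5 members divided by the count of miR482a-5p in the same library (log axis), with each library as a point coloured by group and replicate numbers as symbols. miR482c and miR482b are lower in every reproductive library, miR2118 and miR482d are higher, and the miR482a-3p groups overlap.

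Among the other named miRNAs, the 3 whose centred log2 normalised counts lay closest to miR482a-5p over the 5 libraries, of 27 sets of counts compared, were miR159a, miR391 and miR858. miR159a, which targets GAMYB-like genes, differed by a root mean square of 0.16, and miR391, a relative of miR390, by 0.19. miR858, which targets MYB genes of flavonoid synthesis, differed by 0.21. All 3 were lower in reproductive buds under TMM, with log2 fold changes of -0.72 for miR159a, -0.81 for miR391 and -1.04 for miR858 (edgeR adjusted p = 9.3e-05, 0.00022 and 6.1e-07). Because they were chosen for closeness over these same libraries, the direction shared with miR482a-5p follows from the choice and is no separate result. Under the sums of counts all 3 turned to positive values, as miR482a-5p did, at 0.41, 0.30 and 0.09. Of these only miR159a was called higher (edgeR adjusted p = 2.4e-05, 0.086 and 0.25). With TMM over named miRNAs the values were -0.29, -0.34 and -0.62, and only miR858 was still called lower (edgeR adjusted p = 0.44, 0.21 and 0.036). By the same measure miR482b lay nearest to miR7121c (0.05), miR482a-3p to miR403a (0.16), miR2118 to miR172g (0.10) and miR482d to miR172j (0.19). These points are the same 5 libraries under a common scaling, and the distances are a description.

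Other triggers of phased siRNAs were looked up beside the family. Of 17 families listed as such triggers or as regulators of resistance genes, 7 were in the table, with 8 distinct sets of counts, each given here under a single name, of which 2 were higher, 2 lower and 4 not called under TMM (median log2 fold change 0.00, against 0.08 over all features). These counts lie near the background of 21.1% higher and 24.3% lower over all features. Under the sums of counts 4 of the 8 were higher and the other 4 not called, where 83.3% of all features were higher. miR393c, of the miR393 family against auxin receptor genes, rose from a mean of 789 ± 84.2 normalised counts to 1585 ± 160 (log2 fold change 1.00 ± 0.11 SE, adjusted p = 1.7e-06 in edgeR). miR858 fell from 3733 ± 685 to 1812 ± 50.0 under TMM. miR390e, which starts trans-acting siRNAs from TAS3 transcripts, stood at 425 ± 124 and 428 ± 4.94 and was not called under TMM (log2 fold change -0.01 ± 0.13 SE, adjusted p = 0.94 in edgeR), but was called higher under the sums of counts (1.09, edgeR adjusted p = 3.4e-05). miR3627c was higher (log2 fold change 0.81, edgeR adjusted p = 0.0066).

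The regulators of the small RNA machinery gave 1 higher and 2 lower of 3 under TMM, where 21.1% and 24.3% of all features were. With DESeq2 1 was higher and 1 lower (12.9% and 21.1% of all features), and under the sums of counts 2 were higher and 1 lower (83.3% and 2.46%). miR168a, which targets ARGONAUTE1, stood at 1261 ± 86.5 normalised counts in juvenile buds and fell to 496 ± 23.2 (log2 fold change -1.34 ± 0.09 SE, adjusted p = 6.3e-09 in edgeR), close to the values of miR482b and miR482c. miR162a, which targets DICER-LIKE1, was higher (log2 fold change 0.47, edgeR adjusted p = 0.013) and miR403a, which targets ARGONAUTE2, lower (-0.44, adjusted p = 0.048), a call that was lost with DESeq2 (adjusted p = 0.069) and turned to higher under the sums of counts (0.67). miR168a stayed lower under the sums (-0.22) and miR162a higher (1.58). Neither the resistance genes nor the secondary siRNAs made from them are named in the table, so no target was measured here.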

How the data were processed

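Small RNAs of apple buds were gel-selected by size, ligated to adapters, copied into cDNA and amplified, per the labels' protocols. The authors deposited raw counts of reads for each feature, as whole numbers. The submitters' processing notes list Bowtie 1.1.2, while genome build, mismatches and the handling of multiply matching reads were not given in the sources used here. Columns were matched to samples by their group initials and replicate number. The table gives no sequences, and none are printed. Of the 8 member names, 2 are listed as genes by RefSeq (apple assembly GDT2T_hap1), whose coordinates were not used.

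Features that reached 10 counts in 2 or more libraries were tested in R 4.3.3 with edgeR 4.0.16 (glmQLFit, glmQLFTest, TMM scaling, no covariate). Benjamini-Hochberg adjustment ran over the whole table, and calls were made under 0.05. The common biological coefficient of variation over features was 0.0758. Standard errors are the log2 fold change divided by the square root of F. Normalised counts use library sums times TMM factors, scaled to a geometric mean of 1. DESeq2 1.42.0, other scalings, no count minimum, distinct sets of counts, a replicate block and leaving out each library were alternatives. The edgeR step was tested on simulated data. For shares and quotients, exact permutation tests (two-sided) were used. Named are every member, the 3 nearest named miRNAs (mean CPM of at least 1), and of the pathway list up to 6 by CPM plus those called; the nearest neighbours of the other members and the remaining calls were named after their values were seen. The members and lists were chosen with earlier results of these data known. No 2 libraries were copies: for pairs of the same group, chi-square per feature ran from 1.85 to 6.11, above sampling noise.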

Additional observations from a re-analysis of the deposited data

How the results depend on the processing

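In the 11 alternatives run for the edgeR calls, miR482b and miR482c were called lower each time, and the number of members called lower lay between 2 and 4. The share of all features called lower ran from 2.46% under the sums of counts to 25.7% without reproductive replicate 1. The number called higher was 4 under the sums of counts and 2 with TMM over named miRNAs, against 1 in the main test, and ran from 0 to 2 with a library left out. The log2 fold change of miR482a-5p became 0.41 when the sums were used, and that of miR482a-3p 0.82 with the sums and 0.16 with TMM factors from named miRNAs, where the factor between the groups is smaller. Over all features, 59564 were called higher and 68585 lower, while the sums gave 235325 and 6957, and TMM factors from named miRNAs 114916 and 19027. DESeq2 called 36375 higher, and leaving out a library gave 31259 to 65384 higher, the lowest without juvenile replicate 2. Leaving out a juvenile library leaves a single juvenile sample, which is then assumed to vary like the others. Every share and quotient kept its direction in the alternatives run for it, with 5p over 3p of miR482a (log2) between -0.66 and -0.15. Where the groups do not overlap, leaving out a library cannot reverse the direction, so those alternatives are no test of it. That covers every such measure except the comparison of the miR482a strands.

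Replicate numbers are shared by the groups, but the labels do not say that they mark a common batch, and the deviations of same-numbered libraries correlated at -0.12 and -0.03. With the replicate block, 1 member was called higher and 4 lower (16.5% and 19.6% of all features were), miR482a-3p being the addition (log2 fold change -0.36, edgeR adjusted p = 0.036), and the 5p over 3p quotient differed by -0.37 (log2) between same-numbered libraries. Counting limits miR482d in particular, with 7 and 18 counts in juvenile libraries.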
